A study of Mus musculus with 8 samples.

Results

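Transcripts of 10 genes that mark dendritic cells and their subsets, or that direct their development, were examined in whole 4T1.13 mammary tumours with and without suppression of miR-21. The genes were listed by name: Flt3 and Zbtb46 (markers shared by conventional dendritic cells), Xcr1, Clec9a, Batf3 and Irf8 (type 1 conventional dendritic cells, cDC1), Cd209a and Irf4 (type 2 conventional dendritic cells, cDC2), Siglech (plasmacytoid dendritic cells) and Fscn1 (mature, migrating dendritic cells). All 10 were among the 27179 genes of the table and among the 14382 genes with enough reads to be tested. RNA was sequenced from 4 tumours of 4T1.13-VC cells and 4 of 4T1.13-miR-21-KD cells, called VC and KD tumours here. 4T1.13 is a metastatic mouse mammary carcinoma line. The hosts were BALB/c mice, whose immune system is intact, with the cells placed in the mammary fat pad, and the labels give 100000 cells injected and recovery on day 14, whereas the methods of the study give an earlier day. Both lines carried the miArrest lentiviral vector with an H1 promoter, which expressed an RNA that sequesters mature miR-21 in the KD line and a scrambled RNA in the VC (vector control) line. Each line was a pool of clones, and only the tumour cells carried the vector, so the dendritic cells of the host did not. The RNA came from all cells of a tumour, and a change in the number of dendritic cells and a change in RNA per dendritic cell cannot be told apart in it.

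Dendritic cells take up antigen in tissues and present it to T cells. Conventional dendritic cells arise from precursors that depend on the receptor FLT3 and its ligand. The cDC1 subset requires the transcription factors IRF8 and BATF3, recognises dead cells through CLEC9A (DNGR-1) and presents their antigens to CD8+ T cells, whereas the cDC2 subset includes cells that depend on IRF4 and present mainly to CD4+ T cells. Plasmacytoid dendritic cells secrete type I interferon. On maturation, dendritic cells induce the actin-bundling protein fascin (Fscn1) and the chemokine receptor CCR7 and travel to lymph nodes. Several of these genes are also used outside dendritic cells: Irf8 in macrophages and B cells, Irf4 in plasma cells and activated lymphocytes, Batf3 in T cells, Siglech in some macrophages, and Fscn1 in many carcinoma and stromal cells.

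The microRNA that the vector sequesters is shown with its seed, bases 2 to 8, in capitals. Its mature sequence in RefSeq lies at chr11:86584120-86584141 on the minus strand of GRCm38.p6.
mmu-miR-21a-5p: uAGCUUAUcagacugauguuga
The DNA letters that pair with the whole seed, ATAAGCT, were searched on the sense strand of annotated 3′ UTRs. They occurred in 1 of the 10 genes, Xcr1, against 1716 of 21153 genes with a 3′ UTR (8.11%). Xcr1 held them at 2 places of its 3364-base 3′ UTR, 706 bases in (chr9:123854967-123854973, minus strand) and 2333 bases in (chr9:123853340-123853346, minus strand). Both are shown with 10 flanking bases on each side and the match in capitals.
Xcr1 site at 706: ctgctaacacATAAGCTggcttttaaa
Xcr1 site at 2333: tgccaagcacATAAGCTtatatacagt
A match of letters is a description and not evidence of a functional site.

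RefSeq promoter windows of GRCm38.p6, from 250 bases before to 50 bases after a transcription start, were at hand for all 10 genes, as 11 windows because Irf8 has 2. They were searched on both strands for 3 motifs of factors known in dendritic cells. An IRF motif (GAAANNGAA) was found in 1 of the 11 windows, that of Clec9a, against 8.56% of all 32851 promoters. An AP-1 motif of the kind BATF factors bind (TGANTCA) was found in that of Zbtb46 alone, against 7.81%, and a PU.1 motif (GAGGAAG) in that of Batf3 alone, against 13.6%. The windows of Flt3, Siglech and Cd209a, the genes with the highest folds in the results that follow, held none of the 3, which says only that these letters are not in these 300 bases. The windows with the highest folds and the matched ones of Batf3 and Clec9a are shown, with the match in capitals. They lie at chr5:147400440-147400739 (minus strand, Flt3), chr7:55767934-55768233 (plus strand, Siglech), chr8:3748935-3749234 (minus strand, Cd209a), chr1:191098164-191098463 (plus strand, Batf3, match at position -153 from the start site) and chr6:129408612-129408911 (plus strand, Clec9a, match read on the other strand, at position -2).
Flt3: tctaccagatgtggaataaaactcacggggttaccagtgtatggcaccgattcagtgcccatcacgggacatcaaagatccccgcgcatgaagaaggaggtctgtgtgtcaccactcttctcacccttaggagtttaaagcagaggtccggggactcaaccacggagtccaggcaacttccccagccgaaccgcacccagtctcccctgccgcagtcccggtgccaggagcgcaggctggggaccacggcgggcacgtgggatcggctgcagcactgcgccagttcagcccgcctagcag
Siglech: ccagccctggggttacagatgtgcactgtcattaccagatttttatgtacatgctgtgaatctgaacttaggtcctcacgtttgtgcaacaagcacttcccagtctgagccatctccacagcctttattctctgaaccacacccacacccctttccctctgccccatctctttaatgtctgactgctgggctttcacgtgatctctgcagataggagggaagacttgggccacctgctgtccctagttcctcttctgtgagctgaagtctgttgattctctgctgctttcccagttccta
Cd209a: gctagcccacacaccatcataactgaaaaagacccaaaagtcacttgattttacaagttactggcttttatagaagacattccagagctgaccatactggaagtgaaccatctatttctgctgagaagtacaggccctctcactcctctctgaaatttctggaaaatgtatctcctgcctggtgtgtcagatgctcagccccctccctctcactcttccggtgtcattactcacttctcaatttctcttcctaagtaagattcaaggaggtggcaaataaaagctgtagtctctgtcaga
Batf3: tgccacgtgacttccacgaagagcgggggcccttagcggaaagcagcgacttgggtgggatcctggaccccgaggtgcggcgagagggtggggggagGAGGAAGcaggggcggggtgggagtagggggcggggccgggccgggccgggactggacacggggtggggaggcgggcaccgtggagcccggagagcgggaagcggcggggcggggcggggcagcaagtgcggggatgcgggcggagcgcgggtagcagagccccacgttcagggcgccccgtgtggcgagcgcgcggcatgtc
Clec9a: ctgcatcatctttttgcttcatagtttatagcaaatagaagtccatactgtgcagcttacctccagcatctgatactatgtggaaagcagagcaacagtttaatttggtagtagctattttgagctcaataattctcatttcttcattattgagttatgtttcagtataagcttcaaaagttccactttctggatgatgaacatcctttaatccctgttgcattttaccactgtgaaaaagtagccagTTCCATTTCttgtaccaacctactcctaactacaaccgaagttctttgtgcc

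Between 12134849 and 13592695 reads were counted on genes per VC tumour, and between 12550898 and 12783800 per KD tumour. The members held 34 (Siglech, VC replicate 2) to 3532 (Fscn1, VC replicate 2) reads in a tumour. A count of 0 would have allowed up to 3 reads, or 0.221 to 0.245 CPM (read counts relative to the TMM-scaled library total). This limit covers counting error only, and no member came near it. The row of the targeted microRNA, Mir21a, held 0 counts in all 8 tumours, so this table does not measure the knockdown. Krt8, a keratin gene of the carcinoma cells, was at 808 ± 173 CPM in VC and 439 ± 213 CPM in KD tumours (SD, n = 4 each). Its difference did not pass (adjusted p = 0.0870). Of the 8 epithelial markers tested, 6 were higher and 1 lower, so Krt8 alone does not give the carcinoma cell content. The median log2 fold change over all genes tested was -0.01, and 2826 genes (19.6%) were higher and 2800 (19.5%) lower in KD tumours at an adjusted p under 0.05. All 4 KD tumours lay above all 4 VC tumours for 16.3% of the genes tested and below them for 18.9%.

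Of the 10 dendritic cell genes, 5 were higher in KD tumours, Flt3, Batf3, Irf8, Cd209a and Siglech, and 0 were lower. That is 5 of 10, against 19.6% of all genes tested, in a list written with earlier results of these data known. Members called lower also numbered 0 at an unadjusted p under 0.05 in edgeR, and with DESeq2 and limma-voom. In 4 of the 5 higher genes, all but Irf8, every KD tumour lay above every VC tumour (4 of 10, against 16.3% of all genes), and no member had the reverse pattern. The median log2 fold change of the 10 members was 0.92. The estimates differed widely between genes. By the edgeR estimate Cd209a, Siglech and Flt3 were 4.09-fold, 3.55-fold and 3.42-fold higher in KD tumours. The cDC1 surface receptors Xcr1 and Clec9a were 1.95-fold and 1.83-fold higher without passing the test. Zbtb46 and Irf4 were 1.43-fold and 1.34-fold higher, also without passing, and Fscn1 had the only negative estimate. The estimate of Irf4 depended on VC replicate 4. Without that tumour its log2 fold change was 1.84 (adjusted p = 0.00921) and that of Cd209a 1.89. The number called moved with single tumours. Without KD replicate 2, 9 members were called (8 higher and 1 lower), with 22.5% of all genes higher and 24.3% lower. Without VC replicate 4, 7 were higher against 20.4% of all genes. Without VC replicate 2, VC replicate 3 or KD replicate 4, 4 were higher, and the share of all genes that were higher was then 11.6%, 9.9% and 12.1%.

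**Figure D1:**
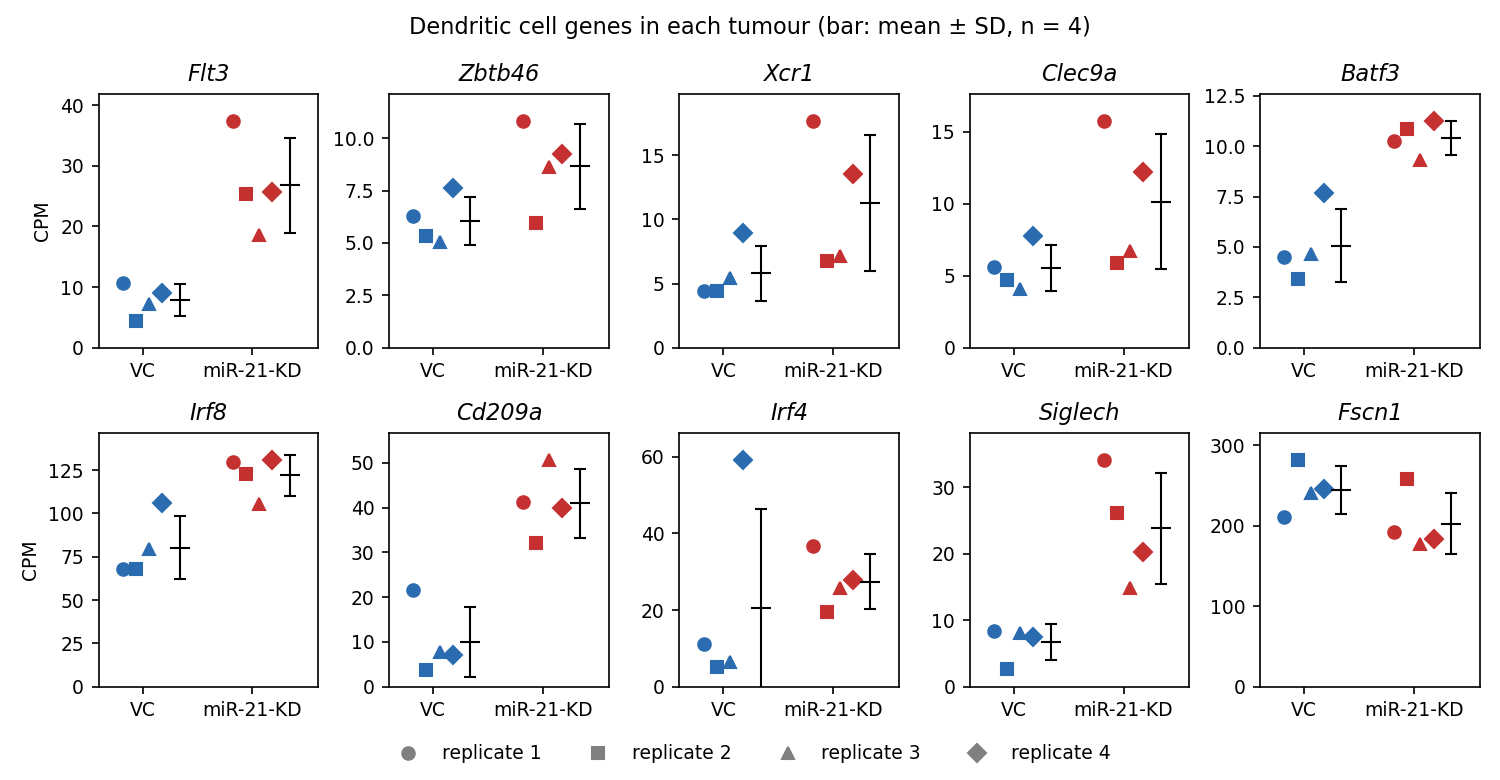
Level of each dendritic cell gene (CPM, linear axis from 0, a scale of its own per gene) in the 4 VC tumours (blue) and the 4 KD tumours (red), with the replicate number shown by the marker and the mean ± SD as bars beside each group. The groups are apart for Flt3, Batf3, Cd209a and Siglech, and VC replicate 4 stands at 59.3 CPM for Irf4, where the lower bar of the VC group is cut off at 0.

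Flt3 (Entrez 14255, chr5:147330741-147400489, minus strand) encodes the receptor tyrosine kinase that dendritic cell precursors need. VC replicates 1 to 4 had 10.6, 4.39, 7.25 and 8.99 CPM, and KD replicates 1 to 4 had 37.4, 25.4, 18.6 and 25.8 CPM. The lowest KD tumour was well above the highest VC tumour. The log2 fold change was 1.78 (SE, standard error, 0.30, adjusted p = 0.00663). Over 15 alternative settings and omitted tumours it stayed between 1.57 and 1.96 and passed the threshold in each.

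Zbtb46 (Entrez 72147, chr2:181371009-181493262, minus strand) encodes a zinc finger transcription factor that marks conventional dendritic cells and their committed precursors, and is also found in endothelium. Its levels were 6.27, 5.35, 5.04 and 7.60 CPM in VC and 10.8, 5.97, 8.60 and 9.24 CPM in KD tumours. KD replicate 2 lay within the VC range and the other 3 above it. The log2 fold change of 0.51 (SE 0.22) did not pass (adjusted p = 0.0950), and it was 0.65 without KD replicate 2 (adjusted p = 0.0274). Whether its change differed from that of Flt3 was not tested.

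Xcr1 (Entrez 23832, chr9:123852315-123862029, minus strand), the receptor for the chemokine XCL1 and a marker of cDC1, had 4.42, 4.39, 5.44 and 8.91 CPM in VC and 17.7, 6.76, 7.14 and 13.5 CPM in KD tumours. Clec9a (Entrez 232414, chr6:129408862-129424764, plus strand), the dead-cell receptor of cDC1, had 5.60, 4.71, 4.10 and 7.77 CPM in VC and 15.8, 5.90, 6.74 and 12.2 CPM in KD tumours. Both genes were high in KD replicates 1 and 4 and, in KD replicates 2 and 3, within the range of the VC tumours. Neither passed, with log2 fold changes of 0.96 (SE 0.37, adjusted p = 0.0690) for Xcr1 and 0.87 (SE 0.35, adjusted p = 0.0772) for Clec9a. The calls were close to the threshold. With the replicate number as a block Clec9a passed (log2 fold change 0.81, adjusted p = 0.0290), and with DESeq2 both did (adjusted p = 0.0337 and 0.0445). Xcr1 also passed without VC replicate 4 (1.24, adjusted p = 0.0335) and without KD replicate 2 (1.14, adjusted p = 0.0349), and Clec9a without KD replicate 2 (1.05, adjusted p = 0.0309). Exons of Clec9a overlap those of Clec1b on the same strand in the annotation, so reads there could belong to either gene.

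Batf3 (Entrez 381319, chr1:191098414-191108943, plus strand), the AP-1 family transcription factor required for cDC1, had 4.50, 3.43, 4.65 and 7.68 CPM in VC and 10.3, 10.8, 9.33 and 11.3 CPM in KD tumours. The KD tumours were close to each other and all above VC. The log2 fold change was 1.04 (SE 0.24, adjusted p = 0.0137), within 0.89 to 1.31 over the alternatives, and it passed in each. Irf8 (Entrez 15900, chr8:120736358-120756694, plus strand), the interferon regulatory factor that specifies cDC1 and plasmacytoid cells, was far more abundant, with 67.8, 68.0, 79.2 and 106 CPM in VC and 129.7, 123, 105 and 131 CPM in KD tumours. VC replicate 4 and KD replicate 3 met at about the same level, and the other tumours were apart by group. Irf8 had a log2 fold change of 0.61 (SE 0.15, adjusted p = 0.0177). The estimate stayed close to it without VC replicate 2 (0.53), VC replicate 3 (0.59) or KD replicate 4 (0.57), but no longer passed (adjusted p = 0.0524, 0.0526 and 0.0505). Whether the changes of these transcription factors differ from those of the cDC1 surface receptors was not tested.

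Cd209a (Entrez 170786, chr8:3743395-3748984, minus strand) encodes a C-type lectin of the DC-SIGN family that marks cDC2 and monocyte-derived dendritic cells. VC tumours had 21.5, 3.67, 7.64 and 7.03 CPM, and KD tumours had 41.2, 32.1, 50.7 and 39.9 CPM. VC replicate 1 was the highest control, still below every KD tumour. Its log2 fold change of 2.03 (SE 0.47, adjusted p = 0.0135) was the largest of the 10 genes, between 1.75 and 2.74 over the alternatives, and passed in each. The mouse genome holds close relatives of Cd209a, and how reads shared between them were counted is not given in the sources used here.

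Irf4 (Entrez 16364, chr13:30749233-30766981, plus strand) had 11.2, 5.11, 6.46 and 59.3 CPM in VC and 36.6, 19.4, 25.7 and 27.9 CPM in KD tumours. VC replicate 4 was the highest of the 8 tumours, and the other 3 VC tumours were below all 4 KD tumours. Over all 8 tumours edgeR gave a log2 fold change of 0.42 (SE 0.72, adjusted p = 0.664), the replicate block 1.13 (adjusted p = 0.157) and limma-voom 1.14 (adjusted p = 0.16), none of which passed, and without VC replicate 4 it was 1.84 (adjusted p = 0.00921). The B and plasma cell markers stood out in the same tumour. Their summed level over the listed genes was 1517 CPM in VC replicate 4, against 67.6, 10.8 and 18.4 CPM in VC replicates 1 to 3 and 164, 49.7, 58.3 and 233 CPM in KD replicates 1 to 4. In VC replicate 4 the plasma cell genes Jchain and Mzb1 were at 1040 and 151 CPM. Of the 8 B and plasma cell genes tested, 0 passed in either direction (edgeR, also 0 at an unadjusted p under 0.05 and with DESeq2 or limma-voom, median log2 fold change -0.85), and 3 were higher without VC replicate 4. Their part in the level of Irf4 was not tested.

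**Figure D2:**
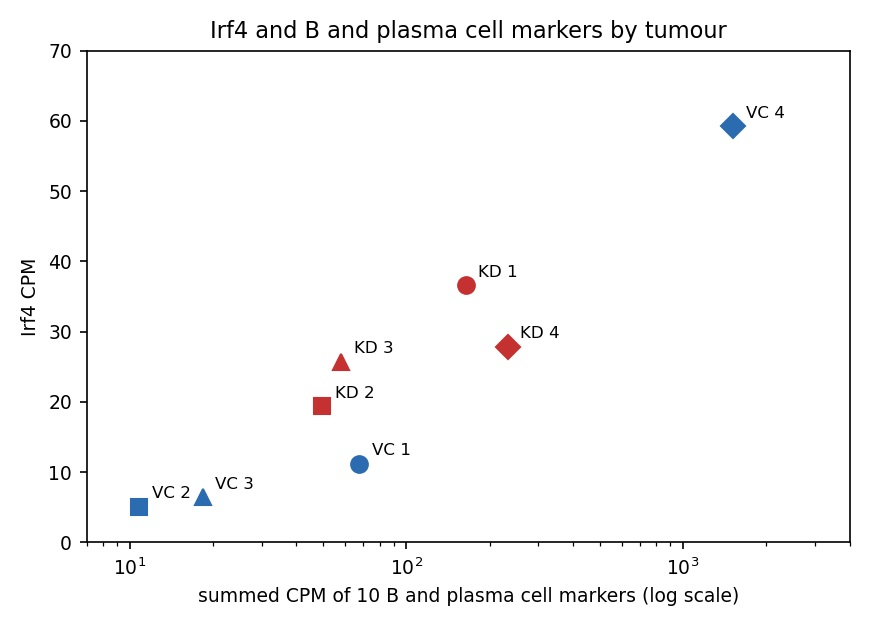
Irf4 level (CPM, vertical linear axis from 0) against the summed level of the B and plasma cell markers (CPM, horizontal log axis) in each tumour, VC in blue and miR-21-KD in red, with the group and replicate number beside each point. VC replicate 4 is at the far upper right, with 59.3 CPM of Irf4 and 1517 CPM of the markers.

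Siglech (Entrez 233274, chr7:55768154-55779448, plus strand) encodes a sialic-acid-binding lectin of plasmacytoid dendritic cells. It had 8.41, 2.71, 8.12 and 7.52 CPM in VC and 34.1, 26.1, 14.8 and 20.2 CPM in KD tumours. Every KD tumour was above every VC tumour, and VC replicate 2 was low beside the other controls. The log2 fold change was 1.83 (SE 0.38, adjusted p = 0.00990), never below 1.56 over the alternatives, and passed in each.

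Fscn1 (Entrez 14086, chr5:142960355-142973189, plus strand) had 210.1, 282, 240.1 and 245 CPM in VC and 192, 258, 177 and 183 CPM in KD tumours. KD replicate 2 lay among the VC tumours, and the other 3 were below all of them. The log2 fold change of -0.27 (SE 0.14) did not pass (adjusted p = 0.157). Without KD replicate 2 it was -0.41 (adjusted p = 0.0171).

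**Figure D3:**
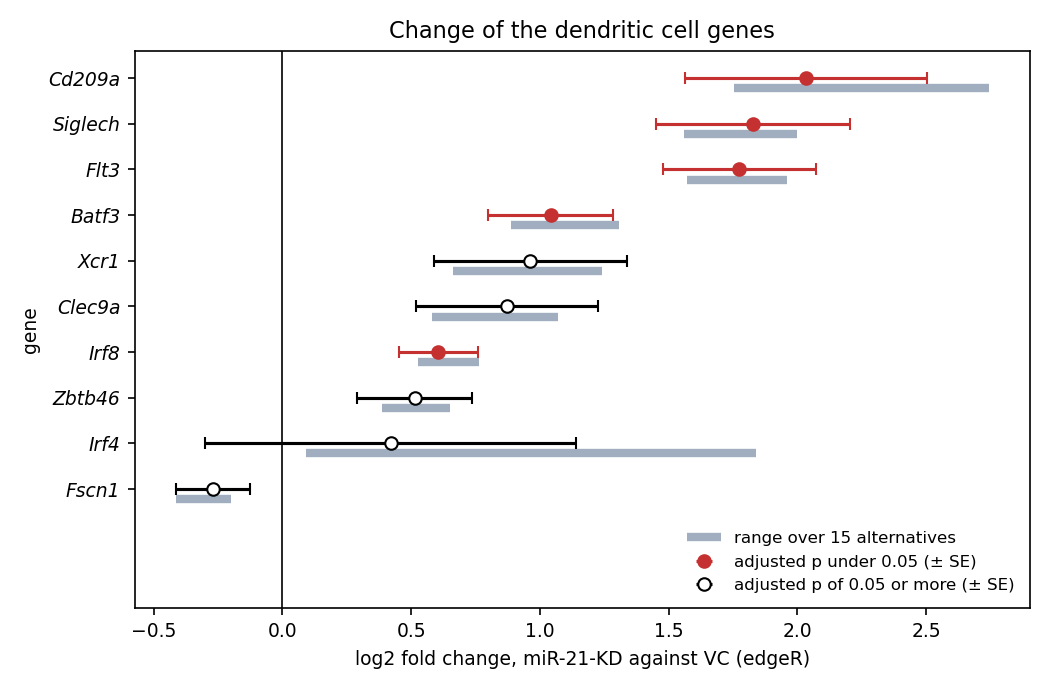
Log2 fold change of each dendritic cell gene in miR-21-KD against VC tumours (edgeR), with bars of 1 standard error (SE) and filled points for an adjusted p under 0.05. The grey bands give the range over 15 alternative settings and omitted tumours, which is widest for Irf4, from 0.091 to 1.84.

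Levels were compared between genes per kilobase of exon. In VC tumours Fscn1 stood first with 81.1 ± 9.76 CPM per kb, followed by Irf8 (11.4 ± 2.57), Cd209a (6.30 ± 4.99), Irf4 (4.18 ± 5.30), Batf3 (3.17 ± 1.14), Siglech (1.98 ± 0.791), Clec9a (1.68 ± 0.487), Xcr1 (1.30 ± 0.480), Flt3 (1.26 ± 0.432) and Zbtb46 (0.713 ± 0.135), all in CPM per kb with the SD over 4 tumours. In KD tumours the order was Fscn1 (67.2 ± 12.4), Cd209a (25.9 ± 4.83), Irf8 (17.3 ± 1.68), Siglech (7.03 ± 2.45), Batf3 (6.53 ± 0.525), Irf4 (5.59 ± 1.45), Flt3 (4.34 ± 1.27), Clec9a (3.08 ± 1.42), Xcr1 (2.53 ± 1.19) and Zbtb46 (1.02 ± 0.238). Fscn1 was above every other member by far more than the spread in both groups, and Irf8 exceeded the third gene by about 1 SD of that gene in VC. The place of Irf4 in the VC order rested on VC replicate 4 (59.3 CPM, against 11.2, 5.11 and 6.46 CPM in VC replicates 1 to 3). From Cd209a to Batf3 and from Siglech to Flt3 in VC, and from Siglech to Xcr1 in KD tumours, neighbours differed by less than the larger of their SDs.

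The tumours of a group did not rank alike for all members. Leaving out Fscn1, VC replicate 4 was the highest VC tumour for 6 of the 9 other genes and VC replicate 2 the lowest for 6. Among KD tumours, replicate 1 was the highest for 6 of 9, while replicate 2 was the lowest for 5 and replicate 3 for 4. KD replicate 3 had the highest level of Cd209a and the lowest of Flt3 and Siglech.

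In all, 3 pairs of members were compared within each tumour, to ask whether markers of 2 subsets changed by different amounts. For Xcr1 minus Cd209a (cDC1 against cDC2), the mean difference of log2 CPM was -0.53 ± 1.20 in VC and -1.95 ± 0.71 in KD tumours (SD, n = 4 each), a shift of -1.41 towards Cd209a that did not pass an exact two-sided permutation test (p = 0.114, adjusted over the 3 pairs p = 0.343). Without VC replicate 1 the shift was -1.98 with p = 0.0286 in the exact permutation test, unadjusted. Irf8 minus Irf4 shifted by -0.49 (exact permutation p = 0.486, adjusted p = 0.714) and Siglech minus Flt3 by 0.08 (exact permutation p = 0.714, adjusted p = 0.714). The shift of Irf8 minus Irf4 was -1.10 without VC replicate 4 (exact permutation p = 0.0571) and -0.15 and -0.19 without VC replicates 2 and 3. Values of the groups overlapped for all 3 pairs. Siglech minus Flt3 ranged from -0.66 to 0.16 in VC and from -0.35 to 0.04 in KD tumours, and its shift was -0.051 without VC replicate 2. The smallest p that 4 against 4 tumours allow is 0.0286.

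The common leukocyte gene Ptprc (CD45) was itself higher, with 203, 132, 141 and 279.6 CPM in VC and 482, 319.9, 323 and 376 CPM in KD tumours (log2 fold change 0.99, SE 0.25, adjusted p = 0.0180), a call that was lost without VC replicate 3 (adjusted p = 0.0536). The members were therefore also described on the log2 scale after subtracting Ptprc in the same tumour, with no test. Flt3 was still above VC in every KD tumour, with a mean 0.75 higher. Cd209a and Siglech had means 1.26 and 0.83 higher, with overlapping groups. Batf3 had nearly the same mean in both groups (0.04 higher in miR-21-KD). The mean of Irf4 was 0.08 higher, and without VC replicate 4 it was 0.62 higher and every KD tumour was above the other 3 VC tumours. Xcr1, Clec9a and Irf8 had means 0.15, 0.26 and 0.41 lower with overlap. Zbtb46 and Fscn1 were below VC in every KD tumour, with means 0.55 and 1.32 lower. Beside Ptprc, then, the members went both ways.

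**Figure D4:**
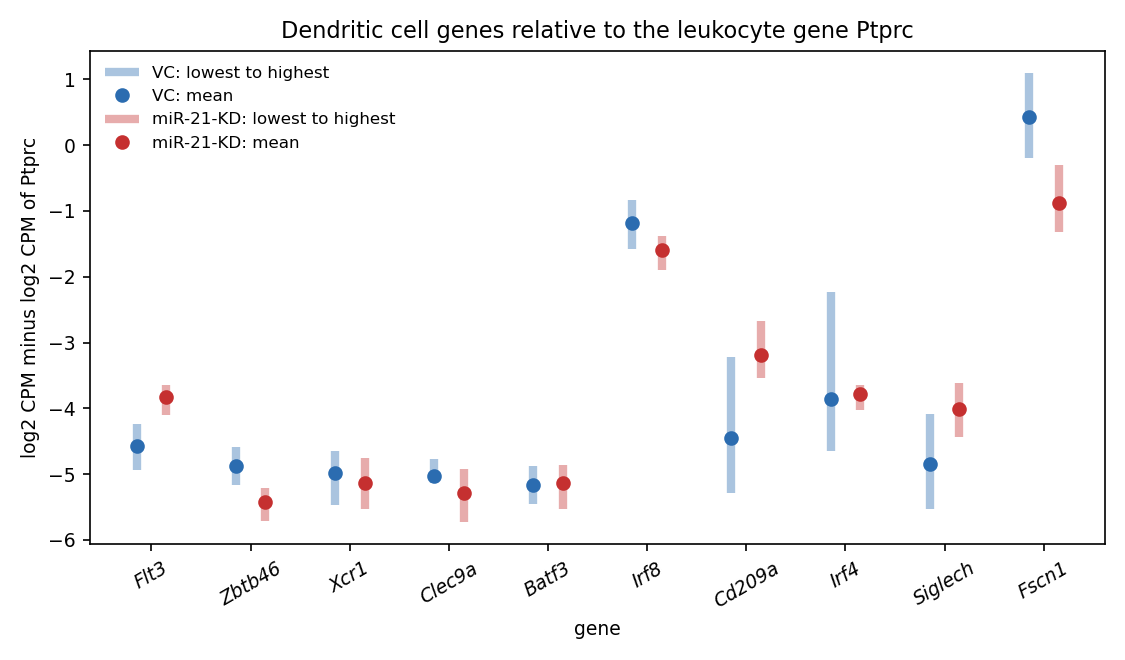
Difference between the log2 CPM of each dendritic cell gene and that of Ptprc in the same tumour. Bars run from the lowest to the highest of the 4 VC (blue) or 4 miR-21-KD (red) tumours and points are means. The groups are apart for Flt3 (miR-21-KD higher) and for Zbtb46 and Fscn1 (miR-21-KD lower) and overlap for the other 7 genes.

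Markers of other cells moved with the groups as well. Of the pan-leukocyte markers 6 of 10 were higher and 0 lower (summed level 1865 to 3241 CPM in VC and 3618 to 5170 CPM in KD tumours, median log2 fold change 0.91), Lcp1, Cd53, Laptm5 and Cd48 with the smallest adjusted p. Of the macrophage and monocyte markers 9 of 12 were higher (3622 to 5472 against 7423 to 11881 CPM, median 0.99), led by Ms4a7, Mrc1, Cd163 and Cd68. Of the T cell markers 6 of 10 were higher (53.1 to 205 against 182 to 397 CPM, median 1.26), led by Cd4, Cd3e, Cd5 and Cd3d, and of the NK cell markers 4 of 8 (36.2 to 157 against 130.5 to 229 CPM, median 1.31), Klrd1, Eomes, Klrb1c and Il2rb. Of the endothelial and fibroblast markers 5 of 10 were higher (2105 to 4404 against 6089 to 12592 CPM, median 0.88), led by Col1a1, Col1a2, Dcn and Lum. These leading genes are fibroblast genes, and the endothelial markers were not counted apart. Of the epithelial markers 6 of 8 were higher and 1 lower (summed level 1305 to 2262 against 894 to 2002 CPM, median 1.45), with Krt19, Epcam, Cdh1 and Krt7 higher and Krt18 lower. Krt8 did not pass (-0.88, adjusted p = 0.0870), and was lower with DESeq2 (adjusted p = 0.0424), with the replicate block (adjusted p = 0.0413) and without KD replicate 2 (adjusted p = 0.0432). Of the 6 mast cell and basophil markers, 0 passed (edgeR, also 0 at an unadjusted p under 0.05 and with DESeq2 or limma-voom, 149 to 338 against 207 to 314 CPM, median 0.19). No marker in these lists was at 0 in all 8 tumours. Of all genes tested 19.6% were higher, and this share also moved with the tumours left out. Without VC replicate 3 it was 9.9%, and fewer markers passed upwards as well: 3 pan-leukocyte, 4 macrophage and monocyte, 1 T cell, 2 NK cell, 2 endothelial and fibroblast and 3 epithelial markers. Without VC replicate 4 (20.4% of all genes), 10 T cell, 7 NK cell and 3 endothelial and fibroblast markers did. T cell markers numbered 2 without KD replicate 1 or 4, NK cell markers 2 without KD replicate 1, endothelial and fibroblast markers 3 without VC replicate 2 or KD replicate 1 or 4, and epithelial markers 3 without VC replicate 2 or KD replicate 3 or 4. Krt18 was not called without VC replicate 1, 2 or 3 or KD replicate 3 or 4, nor with no filter on low counts. The part of these cells in the levels of the dendritic cell genes was not tested.

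Of 105 further dendritic cell genes tested, in 8 lists that hold none of the 10 members, 45 (42.9%) were higher and 5 (4.76%) lower in KD tumours, against 19.6% and 19.5% of all genes. Which cells of a tumour made these RNAs was not tested. The T cell and NK cell markers had median log2 fold changes of 1.26 and 1.31 in the same tumours. Of the 12 other cDC1 genes, 7 were higher and 1 lower (median log2 fold change 0.77). The inhibitor of DNA binding Id2, needed for cDC1 development, went from 110 ± 20.3 to 222 ± 37.3 CPM (SD, n = 4 each, log2 fold change 1.02, adjusted p = 0.00656). The integrin gene Itgae (CD103) rose by 1.17 (adjusted p = 0.0106), Gcsam by 1.56 (adjusted p = 0.0115) and Naaa, a lysosomal amidase, by 0.65 (adjusted p = 0.0108). Tlr3, the receptor for double-stranded RNA that cDC1 carry, was lower (-0.38, adjusted p = 0.0231), and was not called without VC replicate 2 or 3 or KD replicate 3 or 4.

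Of 11 cDC2 genes tested, 5 were higher and 0 lower (median 0.69). The lectin genes Clec10a and Mgl2, close relatives of each other, rose from 42.1 ± 12.6 to 166 ± 23.8 CPM and from 142 ± 19.7 to 304 ± 54.0 CPM (SD, n = 4 each, log2 fold changes 1.98 and 1.10, adjusted p = 0.00501 and 0.00525). Sirpa, a surface receptor also found on macrophages, rose by 0.90 (adjusted p = 0.0148), and Relb, an NF-kB subunit, by 0.38 (adjusted p = 0.00983). Clec10a and Mgl2, like Cd209a, are lectin genes that macrophages can also express.

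Of the 12 plasmacytoid genes, 2 were higher and 2 lower (median 0.59), near the shares of all genes (19.6% and 19.5%). Their summed level was 570 to 665 CPM in VC and 480 to 563 CPM in KD tumours, lower in every KD tumour. Klk1, a kallikrein, rose from 10.1 ± 4.12 to 29.9 ± 9.08 CPM (SD, n = 4 each, log2 fold change 1.56, adjusted p = 0.0134). Ly6d, which is also an epithelial gene, rose by 4.17 (adjusted p = 0.00672). Ptprs, a receptor phosphatase, and Tcf4 (E2-2), the transcription factor on which plasmacytoid cells depend, fell by 1.06 (adjusted p = 0.00501) and 0.40 (adjusted p = 0.0318) on the log2 scale, and both are also made by cells other than plasmacytoid cells. Tcf4 was not called without VC replicate 1, 2 or 3 or KD replicate 3 or 4. DESeq2, and the fit without VC replicate 4, each called 4 of the list higher, against 17% of the genes with any count and 20.4% of all genes. The list held 1 lower gene without VC replicate 2 or 3 or KD replicate 3 or 4.

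Of the 16 mature dendritic cell genes tested, 11 were higher and 1 lower (median 0.95), while Fscn1 was not called. Ccl17 and Ccl22, the chemokines that attract CCR4+ T cells, went from 2.94 ± 1.06 to 26.4 ± 13.8 CPM and from 35.04 ± 10.2 to 126 ± 36.2 CPM (SD, n = 4 each), with log2 fold changes of 3.16 (adjusted p = 0.00558) and 1.85 (adjusted p = 0.00571). Ccr7, the receptor that guides mature dendritic cells to lymph nodes, went from 17.9 ± 6.17 to 56.1 ± 12.1 CPM (SD, n = 4 each, log2 fold change 1.65, adjusted p = 0.00656). Adam23 rose by 1.69 (adjusted p = 0.00589). The costimulatory genes Cd80 and Cd40 rose by 0.97 (adjusted p = 0.0194) and 0.93 (adjusted p = 0.0335), whereas Cd86 and Cd83 did not pass (adjusted p = 0.0512 and 0.105). Without VC replicate 3 Cd80 and Cd40 did not pass either, and Cd40 also not without VC replicate 1 or 2 or KD replicate 1, 3 or 4, while without VC replicate 4 all 4 of these genes did. Cd86 also passed with DESeq2, upper-quartile scaling, limma-voom and at least 10 counts in every tumour, and Cd83 with the replicate block. Traf1, a signalling adaptor, was lower (-0.69, adjusted p = 0.0231), and was not called without VC replicate 2 or 3 or KD replicate 1, 3 or 4. Cd80, Cd40, Cd86, Cd83 and Traf1, and from other lists Tlr3, H2-Ab1, Cd74, Krt8 and Krt18, were named after their values were seen.

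Of the 12 genes for MHC class II presentation, 2 were higher and 0 lower (median 0.92), a smaller share than the 19.6% of all genes. They were Ctss, the protease that trims the invariant chain, with 995 ± 324 and 2259 ± 557 CPM (SD, n = 4 each, log2 fold change 1.18, adjusted p = 0.0119), and Ifi30, a lysosomal thiol reductase, with a log2 fold change of 0.81 (adjusted p = 0.0342, above 0.05 without VC replicate 1, 2 or 3 or KD replicate 1, 3 or 4). The other 10 all had positive estimates, as H2-Ab1 (1.23, adjusted p = 0.0656) and Cd74 (1.00, adjusted p = 0.0913). Both passed with the replicate block (1.43 and 1.15, adjusted p = 0.0107 and 0.0214), with DESeq2 (adjusted p = 0.0171 and 0.0357) and without VC replicate 4, and H2-Ab1 also with limma-voom (adjusted p = 0.0394). VC replicate 4 had the highest summed level of the VC tumours (2009 to 6568 CPM over the group, against 5259 to 9703 CPM in miR-21-KD), and without it 12 of the 12 were higher, against 20.4% of all genes. With the replicate number as a block 9 were higher, against 23% of all genes, and with DESeq2 6, against 17% of the genes with any count. Leaving out VC replicate 1, 2 or 3 or KD replicate 1, 3 or 4 left 1.

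Among ligands and growth factors, Flt3l, the ligand of FLT3, had 12.4, 11.7, 13.9 and 14.3 CPM in VC and 16.9, 13.8, 13.6 and 15.9 CPM in KD tumours, a difference that did not pass (log2 fold change 0.20, SE 0.13, adjusted p = 0.229). Xcl1, the ligand of XCR1, was low, with 6 to 30 counts in VC and 14 to 47 in KD tumours (0.68, SE 0.50, adjusted p = 0.300). Csf2 (GM-CSF), a growth factor of dendritic cells, had 7, 3, 13 and 20 counts in VC and 23, 38, 28 and 36 in KD tumours (1.54, SE 0.48, adjusted p = 0.0343), with all KD tumours above VC. The call of Csf2 was lost (adjusted p up to 0.0819) when any tumour but VC replicate 4 was left out. The receptor Flt3 passed the test and its ligand did not, and whether their changes differ was not tested. Of the 14 growth and recruitment genes tested, 9 were higher and 0 lower (median 0.97), and DESeq2 called 1 lower. The chemokine genes Ccl5 and Ccl4 rose by 1.92 (adjusted p = 0.00922) and 1.497 (adjusted p = 0.00998), and the receptor gene Csf1r by 1.03 (adjusted p = 0.0127).

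Of the 16 transcription factors that act with the members, 6 were higher and 0 lower (median 0.54), and 10 were higher with the replicate number as a block, against 23% of all genes. Stat5b went from 78.2 ± 1.30 to 109 ± 10.7 CPM (SD, n = 4 each, log2 fold change 0.48, adjusted p = 0.00700). Batf, the relative of Batf3, rose by 1.01 (adjusted p = 0.00922), Spi1 (PU.1) by 0.91 (adjusted p = 0.0132) and Runx3 by 0.61 (adjusted p = 0.00906). Of the 12 genes for cross-presentation and dendritic cell output tested, 3 were higher and 1 lower (median 0.17), a share of higher genes near that of all genes. Cxcl16 rose by 0.97 (adjusted p = 0.0196), Il15 by 0.69 (adjusted p = 0.0356) and Il12b, a subunit of IL-12, by 1.496 (adjusted p = 0.0441). Sec22b, which serves membrane traffic between the endoplasmic reticulum and phagosomes, fell by 0.26 (adjusted p = 0.0272). Il15 and Il12b did not pass with no filter on low counts, nor Il12b with limma-voom. The estimates of these 3 genes stayed positive in each omission, but none of them passed without VC replicate 2 or 3 or KD replicate 4, and 1 gene of the list was higher without VC replicate 1 or KD replicate 1. The list held 0 lower genes without VC replicate 2, 3 or 4 or KD replicate 1 or 4, and with at least 10 counts required in every tumour.

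**Figure D5:**
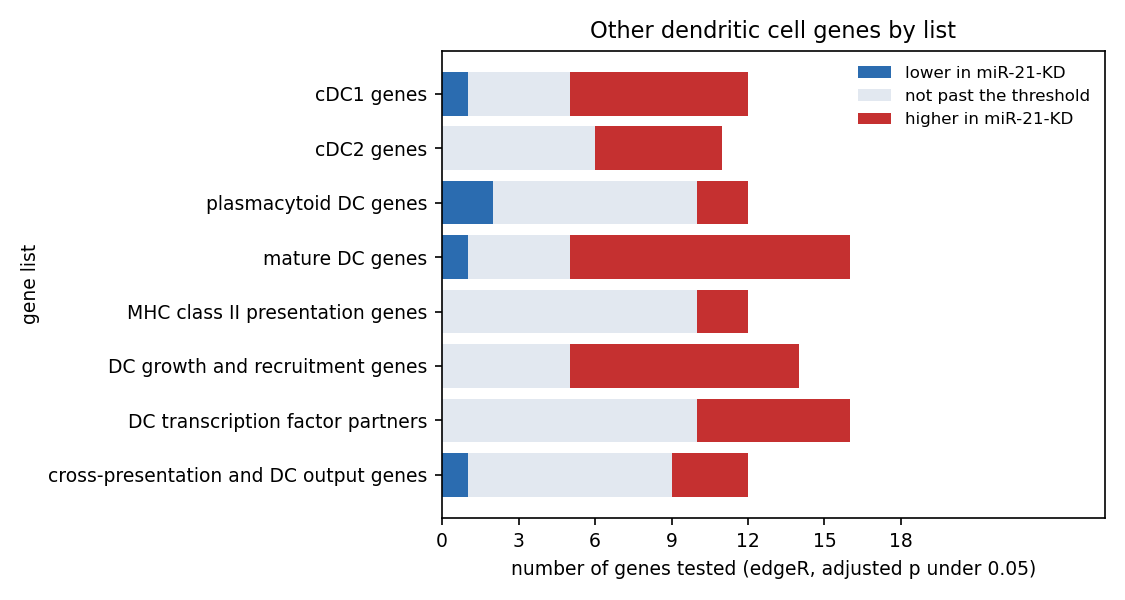
Number of tested genes of each of 8 dendritic cell gene lists (horizontal axis) that were lower (blue), not past the threshold (grey) or higher (red) in KD tumours (edgeR, adjusted p under 0.05). The mature dendritic cell list has 11 of 16 genes higher, and the MHC class II list 2 of 12.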

How the data were processed

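RNA-sequencing of 4 4T1.13-VC and 4 4T1.13-miR-21-KD whole tumours was used. The authors deposited raw read counts per Entrez gene for each tumour, without normalisation. The labels name Subread, featureCounts, edgeR and limma and the build mm10, without versions, and the multimapping and strand settings are not given in the sources used here. Symbols and positions came from RefSeq GRCm38.p6 (25275 of 27179 identifiers matched), exon lengths and 3′ UTRs from GENCODE on that assembly.

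Genes were filtered with filterByExpr (minimum count 10, minimum total 15), scaled with TMM and tested with the robust quasi-likelihood test of edgeR 4.0.16 in R 4.3.3, with Benjamini-Hochberg adjustment over all 14382 genes and a threshold of 0.05. All adjusted p-values for genes are from this test unless another is named. Standard errors came from the estimate and the F statistic. A prior count of 2 entered log2 CPM, which served the exact permutation tests. Replicates are separate tumours, and no 2 agreed within sampling noise. Tumours with the same number deviated together (correlations of 0.272, 0.421, 0.175 and 0.376 after removal of group means). The labels do not name them as pairs. The main edgeR test and the main permutation tests did not use the numbers and are unpaired. A fit with the number as a block is an alternative, given where it changed a call. It called 6485 genes, against 5626 in the main test. The other alternatives were DESeq2 1.42.0, limma-voom (limma 3.58.1), other scalings, other count filters, a prior count of 0.5 for the pairs of genes and each tumour left out. The differences from Ptprc without VC replicate 4 were chosen after seeing the data. The edgeR step was also tested on simulated data.

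The members, the gene lists and the rules were chosen with earlier results of these data known. The rule names all 10 members, Flt3l, Xcl1, Csf2 and Ptprc, and in each list the 4 called genes with the smallest adjusted p. It also names the 5 genes most like each of Flt3, Xcr1, Cd209a and Siglech. A gene that this rule would name is left out of the text.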

Additional observations from a re-analysis of the deposited data

Results flagged for a closer look

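For each member and group, the tumour farthest from the others was examined on the log2 CPM scale with Dixon's critical value for 4 samples. Of the 20 sets of 4 tumours, 1 was singled out, about what chance gives at 1 in 20. Siglech in VC replicate 2 was at 2.71 CPM, below the other 3 VC tumours by 0.900 of the range of the group. The call of Siglech held without this tumour.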

How the results depend on the processing

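Of 150 values of single members under the alternatives, 138 kept their direction and their side of the threshold, 9 came to pass it, 3 no longer did, and 0 reversed. Flt3, Batf3, Cd209a and Siglech kept their call in each of the 15. With DESeq2, Xcr1 (0.97) and Clec9a (0.87) passed, and Clec9a did under the replicate block (0.81), which changed no other member's call. Over the omitted tumours, the genes called ranged from 2936 to 6840, against 5626 with all tumours, the members called from 4 to 9, those higher from 4 to 8 and those lower from 0 to 1. The log2 fold changes ranged from 0.53 to 0.76 for Irf8, 0.66 to 1.24 for Xcr1, 0.58 to 1.07 for Clec9a, 0.091 to 1.84 for Irf4, 0.39 to 0.65 for Zbtb46 and -0.41 to -0.20 for Fscn1. The shift of Xcr1 minus Cd209a ranged from -1.98 to -1.12, that of Irf8 minus Irf4 from -1.10 to -0.15 and that of Siglech minus Flt3 from -0.051 to 0.22. With the replicate block, the exact sign-flip permutation test of the pairs of genes gave p-values of 0.25, 0.5 and 0.75, but with 4 pairs of tumours it cannot go below 0.125 and so says nothing about stability. Of 1016 values for 68 genes named from the lists or as ligands, 911 kept their side of the threshold, 88 lost it, 17 came to pass and 0 reversed. Of 480 counts over the lists, 413 stayed within 1.5 times and 67 did not. The causes were not tested. At these depths the counts of Xcl1, between 6 and 47, and of Csf2, between 3 and 38, leave wide counting error.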

Other observations

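The genes whose pattern over the 8 tumours was most like that of 4 members were looked up among 14030 genes, by the mean absolute difference of log2 CPM centred on each gene. The genes share the same libraries and group difference, so this is a description. For Flt3 they were Il7r (0.0662), the cytokine receptor of lymphocytes and some dendritic cells, and Ccl22 (0.0669), a chemokine of mature dendritic cells, followed by AI504432, Ehd3 and Ranbp17, against a median of 0.906 over all genes. For Xcr1 they were Rtl6, Il27ra, Zmynd15, Neil2 and Clec9a (0.157), against a median of 0.610. For Siglech they were Il18r1 (0.120), Arc, Klk1 (0.161), Adam11 and Gm8221, against 0.947. For Cd209a the nearest were Lox (0.147), a lysyl oxidase of connective tissue, Scn3a, Ptprd, Crabp2 and Tnfaip6, against 1.22.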
